A study of Homo sapiens with 6 samples.

Results

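Glycolysis turns glucose into pyruvate, and the 36 genes described here encode its enzymes, the glucose transporters that feed it and the enzymes at its exits. They were taken from a list of gene symbols and found through the annotation of the array, with 86 probe sets among them, out of 19775 genes measured. Each gene was represented by its brightest probe set (highest mean signal over the arrays), and for PKM both of its probe sets are given. The members comprise 2 transporters, 6 genes of the upper steps, 4 regulators of phosphofructokinase, 3 genes of the aldolase and triose phosphate isomerase steps, 9 genes of the lower steps, 2 lactate dehydrogenase subunits, 3 subunits of the pyruvate dehydrogenase complex, 4 kinases of that complex and 3 enzymes of the pentose phosphate pathway.

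The data are 6 HG-U133 Plus 2.0 arrays, each hybridised with total RNA of H295R/TR SF-1 cells. The H295R line comes from a human adrenocortical carcinoma, and H295R/TR SF-1 is a subclone of it in which doxycycline (Dox) induces SF-1, a nuclear receptor that drives steroid hormone genes and is encoded by NR5A1. Of the arrays, 3 were labelled as cells given Dox for 72 h and 3 as cells kept for 72 h without it, called basal. The title of 1 Dox array gives the dose, 1 µg/mL, as do the methods of the study for inducing SF-1. The titles of the other Dox arrays are codes without a dose. All arrays came from the same inducible subclone, so cells given Dox without the inducible SF-1 are not among the groups compared. The 3 arrays of a condition are biological replicates according to the methods of the study. Arrays are named by their labelled group and their order of deposition, which is not the number in the title.

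Glucose enters a cell through facilitative transporters, is trapped by hexokinase and is committed to glycolysis by phosphofructokinase, whose activator is made and removed by the PFKFB enzymes. The lower steps yield ATP and end at pyruvate kinase, after which pyruvate is either reduced by lactate dehydrogenase or carried into mitochondria and oxidised by the pyruvate dehydrogenase complex, which PDK kinases switch off. The pentose phosphate pathway branches off after hexokinase and supplies NADPH, which the cytochrome P450 enzymes of steroid synthesis use.

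Signals are log2 values, so a difference of 1 is a change of 2-fold, and the array medians lay between 5.56 and 5.60. NR5A1 had signals of 5.55, 6.21 and 6.41 in Dox 1, 2 and 3, against 5.84, 5.92 and 6.30 in basal 1, 2 and 3, a difference of 0.03 with overlapping groups (exact permutation p = 1, two-sided). Its single probe set therefore did not separate the labels, and directions below are those of the labels. The study reports SF-1 overexpression after Dox in these cells, with an immunoblot of the protein. Whether this probe set reads the induced transcript was not tested. Dox 1 was nearly identical to basal 1, and Dox 2 to basal 3, with an SD of the difference over all probe sets of 0.134 and 0.149, against 0.258 to 0.452 between arrays of the same label. Dox 3 and basal 2 had values less spread out than those of the other 4 arrays, with an interquartile range of 3.38 and 3.32 against 3.53 to 3.56, and are called the narrow set. Each result is therefore given over all 6 arrays and also for Dox 2 and Dox 3 against basal 1 and basal 2, with the set as a block. This comparison of 4 arrays leaves out Dox 1 and basal 3 and has 1 residual degree of freedom. The near-identical pairs do not single out these arrays rather than basal 1 and Dox 2, and the choice was made with earlier results of these data known, so that the p-values are not independent evidence. Dox 1 and basal 1 have sample titles spelled out, and the other 4 arrays have coded titles. Outside the narrow set, the comparison of 4 arrays sets Dox 2 (coded) against basal 1 (spelled out). Label and title style cannot be told apart there.

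Over the members alone, the same pairs of arrays lay close together. The SD of the difference over the 36 genes was 0.067 for Dox 1 and basal 1 and 0.101 for Dox 2 and basal 3, and no member differed by more than 0.22 (PGD) in the first of these pairs or 0.28 (ENO2) in the second. Between arrays of the same label this SD was 0.326 to 0.62, with the largest member difference between 0.99 and 2.16. Each of these pairs of opposite label was thus closer in these genes than any 2 arrays of the same label.

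**Figure D1:**
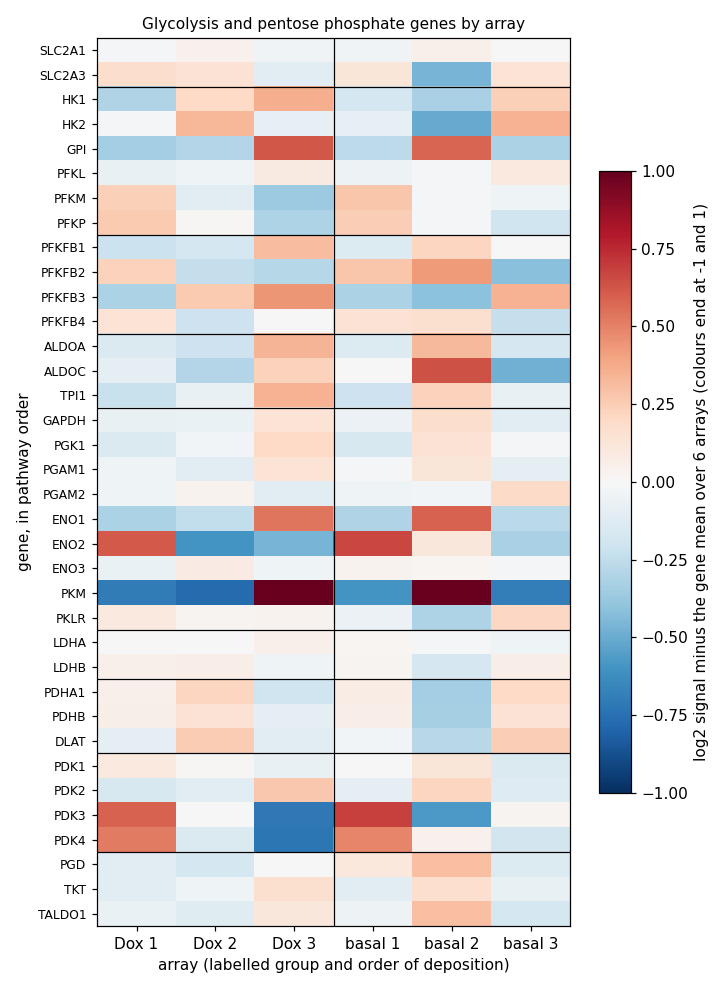
Signal of the 36 members in pathway order (y axis) in each of the 6 arrays (x axis), as the log2 difference from the mean of the gene over the 6 arrays, with red above the mean and blue below it and colours ending at -1 and 1. The columns of Dox 1 and basal 1 look alike, as do those of Dox 2 and basal 3, and PKM, GPI and ENO1 are higher in Dox 3 and basal 2 than in the other 4 arrays.

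The promoter sequences below place the members that the results turn on. PFKFB3 had the largest rise among the members that passed the test in 4 arrays. PFKM is a member that passed it and has a match to AAGGTCA, the core of the SF-1 element. PDK4 had the smallest adjusted p, and PKM had the widest range over the arrays. Sequences run from 250 bases before to 50 bases after the RefSeq start of the gene in GRCh38.p14, 5′ to 3′ on the strand of the gene. Capitals mark matches on either strand to AAGGTCA, the element that SF-1 binds as a monomer, or to ACGTG, the core of the element bound by hypoxia-inducible factors. PFKM has 7 windows and PFKFB3 has 2, and the one with most matches, those to AAGGTCA first, is shown for each.
PFKFB3, chr10:6202682-6202981, plus strand: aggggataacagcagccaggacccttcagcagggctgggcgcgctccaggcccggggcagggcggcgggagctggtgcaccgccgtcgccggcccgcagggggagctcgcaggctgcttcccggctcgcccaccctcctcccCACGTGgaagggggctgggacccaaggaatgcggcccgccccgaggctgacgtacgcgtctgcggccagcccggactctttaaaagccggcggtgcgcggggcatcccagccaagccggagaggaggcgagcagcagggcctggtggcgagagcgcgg
PFKM, chr12:48122397-48122696, plus strand: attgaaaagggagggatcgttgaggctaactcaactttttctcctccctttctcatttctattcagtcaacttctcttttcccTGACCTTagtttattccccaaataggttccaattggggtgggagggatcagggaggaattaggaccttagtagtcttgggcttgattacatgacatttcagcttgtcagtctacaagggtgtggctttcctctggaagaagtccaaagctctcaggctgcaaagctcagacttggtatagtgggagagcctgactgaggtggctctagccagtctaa
PDK4, chr7:95596467-95596766, minus strand: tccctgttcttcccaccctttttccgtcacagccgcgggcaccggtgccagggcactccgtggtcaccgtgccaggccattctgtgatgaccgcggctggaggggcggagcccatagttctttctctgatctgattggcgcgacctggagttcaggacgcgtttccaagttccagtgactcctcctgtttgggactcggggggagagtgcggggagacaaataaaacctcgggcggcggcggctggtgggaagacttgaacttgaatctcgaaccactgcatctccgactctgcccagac
PKM, chr15:72231141-72231440, minus strand: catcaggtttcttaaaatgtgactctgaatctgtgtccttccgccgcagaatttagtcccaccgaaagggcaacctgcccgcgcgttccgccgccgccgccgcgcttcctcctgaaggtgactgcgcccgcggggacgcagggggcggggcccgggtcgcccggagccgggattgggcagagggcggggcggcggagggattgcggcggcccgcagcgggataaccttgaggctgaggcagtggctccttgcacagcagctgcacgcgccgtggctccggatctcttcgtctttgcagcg
In the window of PFKFB3 the capitals are 2 overlapping matches to ACGTG, 1 on each strand. In that of PFKM they are 1 match to AAGGTCA on the opposite strand. On that strand the match follows a T, where the SF-1 probe of the study has a C, so the longer element is not matched. The windows of PDK4 and PKM have no match to either.

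AAGGTCA occurred in 5 of 61 windows of the members (8.2%), those of ALDOC, ENO3, PFKM, PFKP and TPI1, against 3.92% of all 35116 windows of the same length. ACGTG occurred in 23 of the 61 (37.7%), against 21.4% of all. By gene, ACGTG was found for 19 of the 34 members with a window (55.9%, against 24.9% of all genes with one), including ENO2, HK2, LDHA, PDK1 and PGK1, and AAGGTCA for 5 of the 34 (14.7%, against 4.8%). The shares by gene are not alike in windows, with 61 for 34 members against 35116 for 27305 genes. More windows give a gene more places for a match, and these genes are not limited to those on the array. PFKFB2 and SLC2A3 have no window in the table used. The matches describe these letters in these windows only, and binding was not measured here.

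The comparison of the Dox with the basal arrays addresses which transcripts respond to a higher dosage of SF-1. Over all 6 arrays, 0 of the 36 members passed an adjusted p of 0.05 in limma, and 0 of the 19775 genes did (0.0%). No member had an unadjusted p under 0.05, which 109 genes had (0.551%), and none also differed by 2-fold or more, the thresholds that the methods name, which 0 genes reached (0.0%). The p here is that of limma, while the methods name no test. The study itself reports genes raised and lowered by SF-1 overexpression at its thresholds. No member had groups that did not overlap, which 627 genes had (3.17%). The differences between Dox and basal lay between -0.30 (ENO2, the neuronal enolase) and 0.26 (PFKFB3, a bisphosphatase and kinase that makes the activator of phosphofructokinase), with a median of -0.01 (-0.00046 over all genes), 15 positive and 21 negative. A lower signal in an array cannot tell less RNA per cell from fewer cells that carry the transcript.

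PGD, the phosphogluconate dehydrogenase that yields NADPH, had the smallest p of the members. Its signals were 8.92, 8.86 and 9.04 in Dox 1, 2 and 3, against 9.14, 9.33 and 8.89 in basal 1, 2 and 3. Basal 3 lay among the Dox arrays, so the groups overlapped. The difference was -0.18 ± 0.16 (limma SE; exact permutation p = 0.3, two-sided, where 0.1 is the smallest that 3 against 3 arrays allow).

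**Figure D2:**
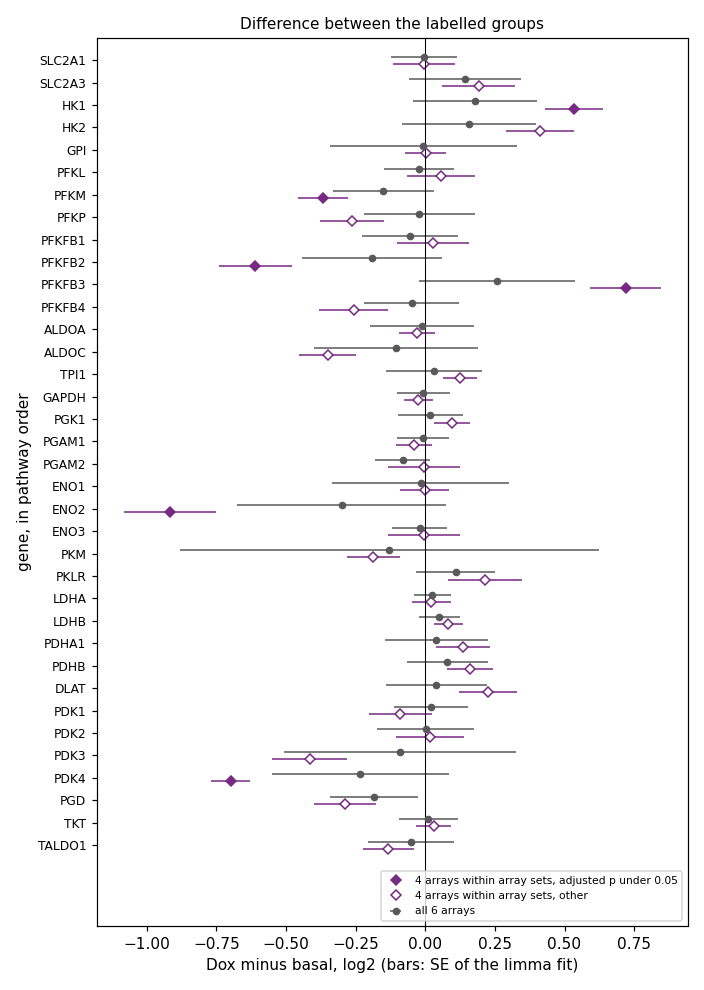
Dox minus basal difference in log2 signal (x axis, bars are the SE of the limma fit) for each of the 36 members in pathway order (y axis), over all 6 arrays (circles, 3 Dox against 3 basal) and over 4 arrays (diamonds, 2 against 2, filled where the adjusted p was under 0.05). The differences over 6 arrays lie between -0.30 and 0.26, and 6 members have filled diamonds, PFKFB3 and HK1 above 0 and PFKM, PFKFB2, ENO2 and PDK4 below it.

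PKM, pyruvate kinase, was the member that varied most. Its brighter probe set had signals of 9.39, 9.32 and 11.36 in Dox 1, 2 and 3, against 9.49, 11.56 and 9.40 in basal 1, 2 and 3. Dox 3 and basal 2, an array of each label, were thus high and the other 4 lay within 9.32 to 9.49, so the means of 10.02 ± 1.16 in Dox and 10.15 ± 1.22 in basal (SD, n = 3 each) differed by less than the spread in either group (-0.13 ± 0.75, SE). The mean of the narrow set was 2.06 above that of the 4 others, which is 4.18-fold. With the set as a block, Dox and basal differed in PKM by -0.19 ± 0.10 in 4 arrays (limma adjusted p = 0.363), and the difference was -0.17 between Dox 2 and basal 1 and -0.20 between Dox 3 and basal 2.

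The other PKM probe set had signals of 6.63, 6.74 and 7.46 in Dox 1, 2 and 3, against 6.70, 6.98 and 6.69 in basal 1, 2 and 3. Dox 3 and basal 2 were again the highest, but Dox 3 lay 0.48 above basal 2. The mean of the narrow set exceeded that of the others by 0.52. The annotation names the gene and no isoform, so the values are not those of a particular form of the enzyme.

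Several other enzymes had their highest signals in Dox 3 and basal 2. For GPI, the isomerase after hexokinase, the signals were 11.59, 11.63 and 12.55 in Dox 1, 2 and 3, against 11.67, 12.51 and 11.61 in basal 1, 2 and 3. ENO1, the widely expressed enolase, had 10.67, 10.74 and 11.52 in Dox 1, 2 and 3, against 10.69, 11.58 and 10.72 in basal 1, 2 and 3. In both genes the narrow set stood clear of the other 4 arrays, by 0.90 for GPI and 0.85 for ENO1 on average, and the labelled groups differed by no more than 0.02 (-0.01 ± 0.33 for GPI and -0.02 ± 0.32 for ENO1). ALDOC, an aldolase best known from brain, had 9.75, 9.54 and 10.07 in Dox 1, 2 and 3, against 9.83, 10.48 and 9.36 in basal 1, 2 and 3. Its narrow set was 0.65 higher, and the difference was -0.29 between Dox 2 and basal 1 and -0.41 between Dox 3 and basal 2 (-0.35 ± 0.10 in 4 arrays, limma adjusted p = 0.0717).

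Set beside the other 4 arrays, both arrays of the narrow set lay above all of them in 13 members, where 25.4% of all genes did so, and below all of them in 7 members, where 26.6% of all genes did. Together these were 20 members, or 55.6%, against 52.0% of all genes, so the members stood outside about as often as other genes. PKM was the 1 member at least 2-fold apart, as were 2.21% of all genes. The median size of the difference was 0.26 for the members and 0.22 for all genes. These are descriptions, since the set was recognised from the spread of the same values.

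The members above the others were PKM, GPI, ENO1, ALDOC, ALDOA, TPI1, PFKFB1, PDK2, TALDO1, PGK1, TKT, GAPDH and PGAM1. All 3 genes of the aldolase and isomerase steps were among them, as were 5 of the 9 genes of the lower steps and 2 of the 3 pentose phosphate enzymes. Over all genes 25.4% lay above, and no step was tested against that share. ALDOA, the aldolase of muscle and most other tissues, was 0.49 higher in the narrow set, and TPI1, triose phosphate isomerase, 0.43. TALDO1, transaldolase, was 0.31 higher and TKT, transketolase, 0.25. GAPDH, the dehydrogenase of the lower steps that is often used as a reference gene, was 0.23 higher, with all 3 of its probe sets outside in the same direction by 0.18 to 0.25.

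The members below the others were PDK3, HK2, SLC2A3, PDHA1, PDHB, DLAT and LDHB, so that all 3 pyruvate dehydrogenase subunits were among them. Over all genes 26.6% lay below, and the subunits were not tested against that share. PDHA1 and PDHB encode the E1 component and DLAT the E2 component of the complex, and the narrow set minus the others was -0.40, -0.31 and -0.28 for them. PDK3, a kinase of that complex, had signals of 10.21, 9.62 and 8.90 in Dox 1, 2 and 3, against 10.31, 9.04 and 9.65 in basal 1, 2 and 3. Its signals fell into 3 levels, each with an array of either label: Dox 1 with basal 1, Dox 2 with basal 3, and Dox 3 with basal 2 lowest. In 4 arrays PDK3 differed between Dox and basal by -0.42 ± 0.14 (limma adjusted p = 0.108), by -0.69 between Dox 2 and basal 1 and by -0.14 between Dox 3 and basal 2.

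**Figure D3:**
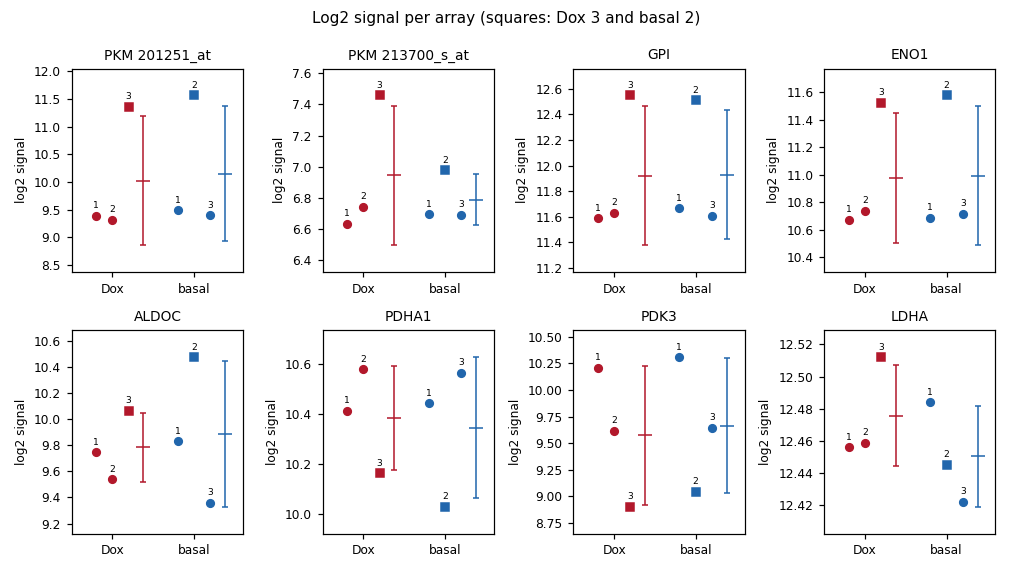
Log2 signal (y axis) of both PKM probe sets, GPI, ENO1, ALDOC, PDHA1, PDK3 and LDHA in the Dox and the basal arrays (x axis), with 1 point per array numbered by order of deposition, squares for Dox 3 and basal 2, and the mean ± SD of each group at its right (n = 3). In the brighter PKM set the squares sit at 11.36 and 11.56 and the other 4 arrays at 9.32 to 9.49, and in PDHA1 and PDK3 the squares are the lowest points of both groups.

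In the comparison of 4 arrays with the set as a block, 6 of the 36 members passed an adjusted p of 0.05 in limma (16.7%), where 6.99% of all genes did. The 2 members that rose, PFKFB3 and HK1, stand beside 3.42% of genes called higher, and the 4 that fell, ENO2, PFKFB2, PFKM and PDK4, beside 3.58% called lower. An unadjusted p under 0.05 was found for 11 members (17.3% of all genes). In 9 members the 2 Dox arrays lay wholly above or below the 2 basal arrays (25.5% of all genes), and 24 had the same sign in both sets (60.9% of all genes). No member reached 2-fold with an unadjusted p under 0.05 (1.53% of all genes), and the median difference was -0.0034 (-0.0062 over all genes). None of these calls was made with all 6 arrays, nor without the block, nor when any 1 of the 4 arrays was left out. With basal 1 and Dox 2 left out in place of Dox 1 and basal 3, the differences were 0.10 for PFKFB3, 0.08 for HK1, 0.18 for ENO2, -0.03 for PFKFB2, -0.03 for PFKM and -0.04 for PDK4, and none passed.

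PFKFB3 rose in this comparison. Its signals were 7.96, 8.54 and 8.73 in Dox 1, 2 and 3, against 7.96, 7.87 and 8.63 in basal 1, 2 and 3. Dox 1 equalled basal 1 to the second decimal, and basal 3 lay with Dox 2 and Dox 3, so all 6 arrays gave 0.26 ± 0.28 (limma adjusted p = 1) and the 4 arrays 0.72 ± 0.13, which is 1.65-fold (limma adjusted p = 0.0045). Dox 2 exceeded basal 1 by 0.58 and Dox 3 exceeded basal 2 by 0.86. PFKFB3 has 1 probe set, and its enzyme favours the making of the phosphofructokinase activator.

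The gene for another regulator moved the other way. PFKFB2, the form best known from heart, had 6.32, 5.86 and 5.81 in Dox 1, 2 and 3, against 6.37, 6.52 and 5.68 in basal 1, 2 and 3. Basal 3 was the lowest of the 6 and Dox 1 close to basal 1, so the labelled groups overlapped (-0.19 ± 0.25 over 6 arrays), while in 4 arrays the gene fell by 0.61 ± 0.13 (limma adjusted p = 0.0147). Its 4 probe sets differed by -0.61 to 0.08 in 4 arrays, and with the median of the probe sets the difference was -0.07 and did not pass. PFKFB4, the testis and tumour form, had 8.35, 7.995 and 8.20 in Dox 1, 2 and 3, against 8.35, 8.37 and 7.97 in basal 1, 2 and 3. Here Dox 1, basal 1 and basal 2 lay together and above the rest (-0.26 ± 0.12 in 4 arrays, limma adjusted p = 0.32). PFKFB1, the liver form, differed by 0.03 ± 0.13 in 4 arrays (limma adjusted p = 0.952).

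Hexokinase, the enzyme that traps glucose, is represented by HK1 and HK2. HK1, the form of most tissues, had 10.26, 10.76 and 10.92 in Dox 1, 2 and 3, against 10.38, 10.23 and 10.80 in basal 1, 2 and 3. As for PFKFB3, basal 3 was as high as Dox 2 and Dox 3 and Dox 1 as low as the other basal arrays, and HK1 rose by 0.53 ± 0.10 in 4 arrays, which is 1.45-fold (limma adjusted p = 0.0088; 0.18 ± 0.22 over 6 arrays). HK2, the inducible form of muscle and many tumours, had 7.85, 8.19 and 7.77 in Dox 1, 2 and 3, against 7.78, 7.35 and 8.20 in basal 1, 2 and 3. Dox 2 and basal 3 were high and basal 2 was the lowest, and in 4 arrays it differed by 0.41 ± 0.12 without passing the test (limma adjusted p = 0.0757), with 0.41 between Dox 2 and basal 1 and 0.42 between Dox 3 and basal 2.

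Of the phosphofructokinase genes, PFKM, the muscle form, fell by 0.37 ± 0.09 in 4 arrays (limma adjusted p = 0.031). Its signals were 11.14, 10.79 and 10.53 in Dox 1, 2 and 3, against 11.18, 10.88 and 10.86 in basal 1, 2 and 3. Dox 1 and basal 1 were the highest, Dox 3 the lowest, and over 6 arrays the difference was -0.15 ± 0.18. PFKP, the platelet form, differed by -0.26 ± 0.11 in 4 arrays (limma adjusted p = 0.26) and PFKL, the liver form, by 0.06 ± 0.12 (limma adjusted p = 0.889).

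ENO2 had the widest difference in 4 arrays. Its signals were 6.34, 5.13 and 5.26 in Dox 1, 2 and 3, against 6.39, 5.83 and 5.40 in basal 1, 2 and 3. Dox 1 and basal 1 were high, and Dox 2, Dox 3 and basal 3 low and below the median of their array. ENO2 fell by 0.92 ± 0.16 in 4 arrays, which is 1.89-fold lower in Dox (limma adjusted p = 0.0052), by 1.26 between Dox 2 and basal 1 and by 0.57 between Dox 3 and basal 2.

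PDK4, a kinase that inactivates pyruvate dehydrogenase when fatty acids are burnt, had the smallest adjusted p of the members. Its signals were 13.20, 12.54 and 11.96 in Dox 1, 2 and 3, against 13.17, 12.73 and 12.50 in basal 1, 2 and 3. Dox 1 and basal 1 were the highest and Dox 3 the lowest, and the groups overlapped over 6 arrays (-0.23 ± 0.32). In 4 arrays PDK4 fell by 0.70 ± 0.07 (limma adjusted p = 9.6e-05), by 0.63 between Dox 2 and basal 1 and by 0.77 between Dox 3 and basal 2. Its other probe sets differed by -1.46 and -1.15 in the same 4 arrays. PDK4 is among the genes that the study lists for SF-1 overexpression on these arrays, so the call is not independent evidence of its direction.

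**Figure D4:**
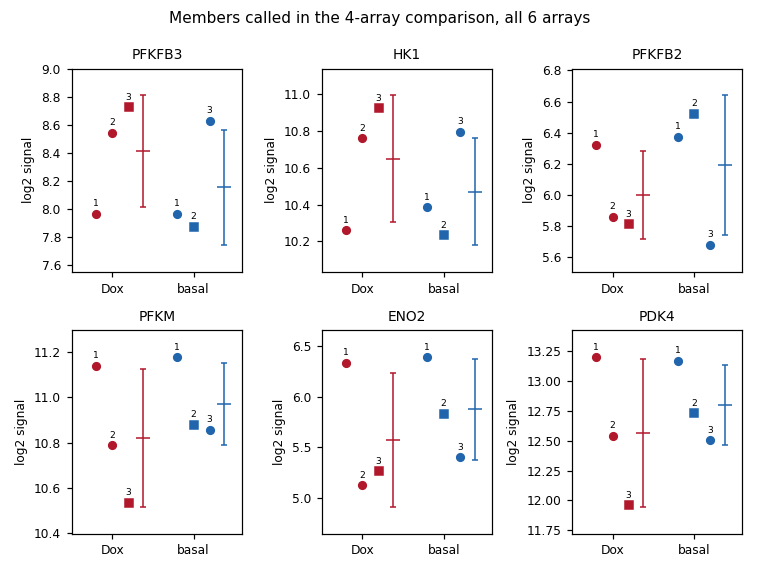
Log2 signal (y axis) of the 6 members that passed the test in 4 arrays, in the Dox and the basal arrays (x axis), with 1 point per array numbered by order of deposition, squares for Dox 3 and basal 2, and the mean ± SD of each group at its right (n = 3). In each gene Dox 1 lies near basal 1 and Dox 2 near basal 3, and the bars of the groups overlap.

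The remaining kinases, PDK1 and PDK2, did not pass the test. PDK1, a hypoxia-inducible form, had 9.43, 9.35 and 9.27 in Dox 1, 2 and 3, against 9.33, 9.46 and 9.19 in basal 1, 2 and 3. The groups overlapped throughout and the difference was 0.02 ± 0.13 over 6 arrays and -0.09 ± 0.11 over 4 (limma adjusted p = 0.78). PDK2 differed by 0.02 ± 0.12 in 4 arrays (limma adjusted p = 0.972).

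The glucose transporter SLC2A1 (GLUT1) was among the steadiest members. Its signals were 9.31, 9.36 and 9.28 in Dox 1, 2 and 3, against 9.28, 9.37 and 9.31 in basal 1, 2 and 3. The groups overlapped throughout, with a difference of -0.0048 ± 0.12 over 6 arrays. SLC2A3 (GLUT3) differed by 0.19 ± 0.13 in 4 arrays (limma adjusted p = 0.539).

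Lactate dehydrogenase is a tetramer of the products of LDHA and LDHB. LDHA had 12.46, 12.46 and 12.51 in Dox 1, 2 and 3, against 12.48, 12.45 and 12.42 in basal 1, 2 and 3. Its 6 arrays spanned 0.09, Dox 3 being the highest and basal 3 the lowest, and the difference was 0.03 ± 0.07 over 6 arrays and 0.02 ± 0.07 over 4. LDHB had 14.06, 14.08 and 13.97 in Dox 1, 2 and 3, against 14.04, 13.84 and 14.07 in basal 1, 2 and 3. Only the narrow set was lower, and in 4 arrays the difference was 0.08 ± 0.05 (limma adjusted p = 0.505).

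Over the 6 arrays the range of a member had a median of 0.526, against 0.452 over all genes, and 5 members spanned at least 1, PKM (2.24), PDK3 (1.41), ENO2 (1.26), PDK4 (1.24) and ALDOC (1.12). The signal was above the median of its array on all 6 arrays in 32 members, and 1 member, PGAM2, the muscle phosphoglycerate mutase, was below it on all 6. The members not given array by array did not pass the test in 4 arrays, where the 3 pyruvate dehydrogenase subunits differed by 0.13 to 0.23, the lower-step genes GAPDH, PGK1, PGAM1, PGAM2, ENO3 and PKLR by -0.04 to 0.22 and the pentose phosphate enzymes TKT and TALDO1 by -0.13 to 0.03.

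Of the 36 members, 26 had more than 1 probe set and 10 had a single one. Probe sets of ENO1, PDK2 and PGK1 disagreed, with some above and others below the 4 other arrays in the narrow set. For ENO1 the brightest set was 0.85 higher there and another 0.49 lower. In 8 genes every probe set lay outside on the same side, and in 11 genes the difference over 4 arrays had both signs among the probe sets. Some of these probe sets carry the suffixes that mark probes shared with other transcripts, 29 with _s_at and 14 with _x_at, and 4 members were represented by the latter kind. A further 2 probe sets list SLC2A3 together with SLC2A14 and were not used, and control probe sets of GAPDH were not analysed here.

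**Figure D5:**
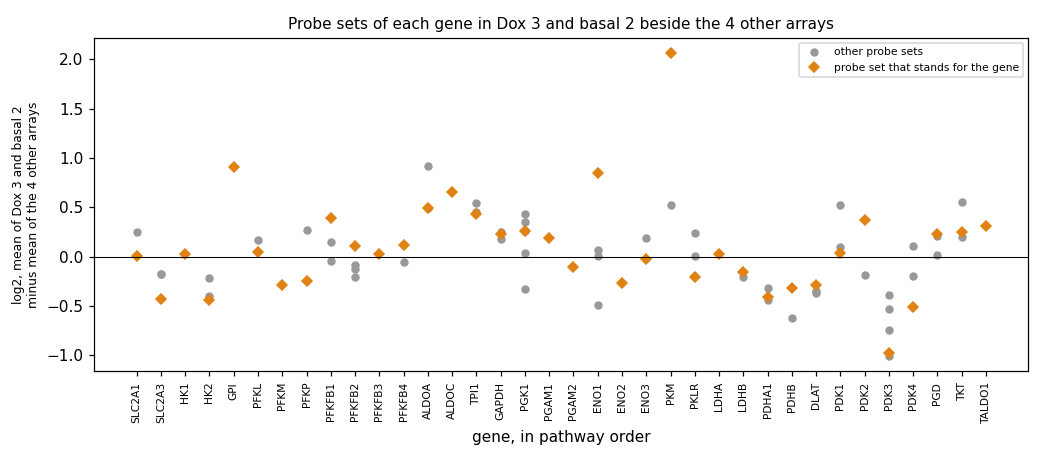
Mean log2 signal of Dox 3 and basal 2 minus the mean of the other 4 arrays (y axis) for every probe set of the 36 members in pathway order (x axis), with a diamond for the probe set that represents the gene and circles for its others. The PKM sets lie at 2.06 and 0.52 and those of ENO1 between -0.49 and 0.85.

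Other genes of the same pathways were read from a further list of 43, of which 36 were measured. None passed over 6 arrays, where 1 had an unadjusted p under 0.05 (0.551% of all genes) and 5 had groups that did not overlap (3.17% of all genes), and 3 passed over 4 arrays (8.33%, beside 6.99% of all genes). PC, pyruvate carboxylase, rose by 0.63 ± 0.12 (limma adjusted p = 0.0081) and SLC16A7, a monocarboxylate transporter, by 0.68 ± 0.12 (limma adjusted p = 0.0045). PDP1, the phosphatase that reverses the action of the PDK kinases, fell by 0.52 ± 0.11 (limma adjusted p = 0.0136). With all 6 arrays the differences were 0.25 ± 0.26 for PC, 0.28 ± 0.35 for SLC16A7 and -0.21 ± 0.21 for PDP1. In each of these genes Dox 1 and basal 3, the arrays left out, differed in the opposite direction. In the narrow set 7 of the 36 lay above (25.4% of all genes) and 14 below the other arrays (26.6%).

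Of 20 hypoxia-inducible genes outside glycolysis, 19 were measured and 3 passed over 4 arrays (15.8%, beside 6.99% of all genes). MXI1 rose by 0.46 ± 0.10 and NDRG1 by 0.86 ± 0.13 (limma adjusted p = 0.0202 and 0.0016), and BHLHE40 fell by 1.06 ± 0.15 (limma adjusted p = 0.00093). With all 6 arrays the differences were 0.09 ± 0.23 for MXI1, 0.24 ± 0.54 for NDRG1 and -0.21 ± 0.49 for BHLHE40. In each of these genes Dox 1 and basal 3, the arrays left out, differed in the opposite direction. In the narrow set none of the 19 lay above the other arrays (25.4% of all genes) and 8 lay below (26.6%). Over 6 arrays none of the 19 had an unadjusted p under 0.05.

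Of the 9 markers of the adrenal cortex measured, 3 lay above all other arrays in the narrow set and 0 below (33.3% outside, against 52.0% of all genes), and none passed over 6 arrays. The mean signal of the 9 was 8.55 to 8.73 in Dox 3 and basal 2, against 8.14 to 8.28 in the other arrays. The 3 that lay above were CYP17A1, CYP11A1 and SCARB1, where the narrow set was higher by 1.34, 1.10 and 0.41. For HSD3B2 the difference of 1.14 came from basal 2 (7.89), since Dox 3 (6.07) lay below Dox 1 (6.36) and basal 1 (6.49). The difference was -0.29 in STAR and -0.16 in SULT2A1. Over 4 arrays SULT2A1, a steroid sulfotransferase, rose by 0.68 ± 0.11, and HSD3B2 and STAR, of steroid synthesis and cholesterol import, fell by 1.40 ± 0.18 and 0.54 ± 0.09 (limma adjusted p = 0.0021, 0.00051 and 0.0023). With all 6 arrays the differences were 0.27 ± 0.26 for SULT2A1, -0.48 ± 0.67 for HSD3B2 and -0.17 ± 0.24 for STAR. In each of these genes Dox 1 and basal 3, the arrays left out, differed in the opposite direction. Of 12 markers of stroma, endothelium and blood, 7 were below the array median on all arrays and 0 passed in either comparison, with a mean signal of 5.001 to 5.18 in Dox and 5.04 to 5.15 in basal. The 4 markers of the adrenal medulla had means of 5.41 to 5.53 in Dox and 5.42 to 5.57 in basal. The part of the spread of values and of these markers in the members' signals in Dox 3 and basal 2 was not tested.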

How the data were processed

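The deposited table holds 1 log2 value per probe set and array, made by the authors with GCRMA according to the submitters' processing notes (version not given in the sources used here), a method that models background from the base composition of the probes and then combines the probes of each set. The methods of the study name the array maker's console software, and whether all 6 arrays were normalized together is not stated. The values were used without further scaling or filtering. The platform annotation gave a single gene symbol for 41091 of the 54613 probe sets, and the others (1801 with several symbols, 11721 with none) stayed out of the gene table. All 36 members matched current RefSeq symbols.

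Dox and basal were compared in limma 3.58.1 under R 4.3.3 (lmFit, then eBayes with its trend option), two-sided, with Benjamini-Hochberg adjustment over 19775 genes at 0.05. The procedure was tested on simulated data with the array set as a block, for 6 and for 4 arrays. The fit over 6 arrays without a block was not tested so, and the simulated arrays held no near-identical pairs. Exact permutation tests ran over all 20 assignments of 6 arrays. Motifs were counted in RefSeq promoter windows of 300 bases.

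The members, the gene lists and the comparison of 4 arrays were chosen with earlier results of these data known. Array values are given for PKM, members past the threshold in either comparison, the 8 members with the widest range, and SLC2A1, HK2, PFKFB3, PFKFB4, LDHA, LDHB, PDK1 and PDK4. PGD, as the member with the smallest p, was added after its values were seen. Alternatives covered normalization, the filter on low signal, the variance trend, the choice of probe set, the block and each array left out. Figures were drawn with matplotlib 3.10.9.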

Additional observations from a re-analysis of the deposited data

How the results depend on the processing

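Over 6 arrays, the alternatives left 0 members past the threshold, except leaving out both basal 3 and Dox 1 with the array set as a block, which is the comparison of 4 arrays. It gave 1383 genes, 6 members, 9 members whose groups did not overlap (25.5% of all genes), and an NR5A1 difference of 0.43 (limma adjusted p = 0.0808). Leaving out both basal 1 and Dox 2 instead gave 0 members past the threshold and 4 without overlap (13.4% of all genes). Leaving out each array in turn gave 0 to 0 members past the threshold and 0 to 4 without overlap (7.05% to 12.0% of all genes). Over 14 alternatives for each member, 81 of 503 values had another sign than the value over 6 arrays.

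Over 4 arrays, 0 genes and 0 members passed without the block, and likewise with the style of the sample title as the block (titles spelled out or coded). Leaving out each of the 4 arrays in turn gave 0 to 86 genes, 0 to 0 members, and 0 to 2 members at the thresholds of the study, a count that was 1 with the median of all probe sets of a gene. All 6 members passed after quantile normalization, and together with HK2 when only genes above the median signal were tested. PFKM was lost without the variance trend, and with the median of the probe sets PFKFB2 was lost and ALDOC passed. None of 60 values of these members changed sign, but these values do not include the fit without basal 1 and Dox 2. In that fit ENO2 changed sign, with a difference of 0.18 against -0.92. Each of the other members past the threshold kept its sign there, with a smaller difference. The cause of these changes was not tested. No paired analysis was possible because the labels give the groups no shared replicate numbers, and the array set used as a block was recognised from the values and not from the labels. The number of arrays limits the precision.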
